A study of Mus musculus with 3 samples.

Results

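The genes described here encode the contractile apparatus of smooth muscle and the proteins bound to it: Acta2, Actg2, Tagln, Cnn1, Cnn2, Cald1, Des, Myh11, Smtn and Pdlim3. They were chosen by name, and every probe whose RefSeq accession belongs to 1 of the 10 symbols was taken, which gave 13 probes of 39429 distinct probes and 10 genes of 21153 on the array. Two-colour Agilent microarrays compared RNA from 2 kinds of mouse embryoid body, the cell aggregates that form when embryonic stem cells differentiate. The tested cultures were Hopx-/- and carried 12.5 µM XAV939, a tankyrase inhibitor that lowers Wnt signalling by stabilising axin, and the other cultures were Hopx+/- with no inhibitor named on their label. Both were at day 8 of cardiac differentiation. There were 3 arrays, each carrying RNA of both cultures, and the labels call them biological replicates.

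Several features limit these cultures as a model. Every culture lacked at least 1 working copy of Hopx, so no wild type was measured, and genotype and inhibitor changed together and cannot be told apart. The stem cell lines were derived from blastocysts of each genotype, and the labels do not say whether several lines of a genotype were used. They were kept on a feeder layer of inactivated embryonic fibroblasts, and the amount of feeder cells left at day 8 is not given. After hanging drops and suspension culture, the bodies were plated in a medium with VEGF, bFGF, FGF10 and ascorbic acid. The RNA is from whole cultures, so fewer cells of a type and less RNA per cell cannot be told apart.

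By the labels, Cy5 carried the Hopx-/- RNA throughout, but the ratio of Cy5 over Cy3 ran oppositely on replicate 3 (r = 0.965 between replicates 1 and 2, -0.878 between 1 and 3 and -0.908 between 2 and 3, over tested probes). The sign of replicate 3 was turned to match the values the authors deposited. Every direction below is likely, not settled: with all signs turned, Actg2, Tagln, Cnn1 and Pdlim3 become the lower genes and Cald1, Des and Acta2 the higher ones, and the counts of lower and higher genes in each list swap. Read in the direction used here, Hopx itself had log2 ratios of -2.65, -2.75 and -2.73. In Cy3, 61.4% to 68.0% of probes were well above background, and in Cy5 56.6% to 66.6%.

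Smooth muscle shortens when myosin pulls on actin filaments, after phosphorylation of the myosin light chain. Its thin filaments carry calponin, caldesmon and transgelin in place of troponin. Most of these genes respond to serum response factor (SRF), which binds a sequence called the CArG box and recruits myocardin or a myocardin-related factor. HOPX, a homeodomain protein without DNA contacts of its own, is known to bind SRF and restrain SRF-dependent transcription. Several of the genes, Acta2 and Tagln above all, are also switched on for a time in the embryonic heart tube, so their signal in a cardiac culture does not by itself mark smooth muscle.

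The promoters are shown because the CArG box is the DNA element that links these genes. The element was searched as the CArG box, CC followed by 6 bases that are each A or T and then GG, in the 250 bases before each RefSeq start on build GRCm38.p6. It reads the same way on both strands, so 1 search covers both. Windows were available for 7 of the 10 genes, 8 windows in all, and Actg2, Tagln and Myh11 are named only. A full match stood in 1 of the 8 windows, against 1.47% of the 32851 windows of all genes. A match with at most 1 base off, allowed only among the 6 inner bases, was found in 3 of the 8, against 8.59% of all windows. A match describes letters and is not evidence of binding, and Cnn1, Cald1, Des and Smtn had none in this window.

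Stretches of 100 bases of these windows, starting 120 bases before the gene start, are given here, 5′ to 3′ on the gene's strand, with matches in capitals. Cnn2 holds the full match, and Acta2 and Pdlim3 hold matches that are 1 base off. The striated muscle actins Acta1 and Actc1 and the cytoplasmic actin Actg1 are shown for comparison. Each holds a full match, and Actc1 has a 1-off match as well.
Acta2, chr19:34255394-34255493, minus strand: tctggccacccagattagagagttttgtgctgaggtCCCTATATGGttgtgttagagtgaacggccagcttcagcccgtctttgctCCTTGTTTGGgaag
Cnn2, chr10:79988480-79988579, plus strand: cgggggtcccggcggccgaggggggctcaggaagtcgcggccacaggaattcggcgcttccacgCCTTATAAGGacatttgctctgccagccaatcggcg
Pdlim3, chr8:45885367-45885466, plus strand: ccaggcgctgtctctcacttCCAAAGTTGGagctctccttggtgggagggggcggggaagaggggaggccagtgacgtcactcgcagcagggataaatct
Acta1, chr8:123894796-123894895, minus strand: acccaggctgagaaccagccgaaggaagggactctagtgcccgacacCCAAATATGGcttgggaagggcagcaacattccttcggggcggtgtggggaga
Actc1, chr2:114052896-114052995, minus strand: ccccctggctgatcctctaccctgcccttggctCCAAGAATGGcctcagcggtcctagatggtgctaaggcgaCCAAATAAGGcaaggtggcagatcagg
Actg1, chr11:120348516-120348615, minus strand: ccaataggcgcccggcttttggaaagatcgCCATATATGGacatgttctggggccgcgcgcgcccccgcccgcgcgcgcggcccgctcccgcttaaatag

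The smooth muscle genes did not move as a block. Actg2, Cnn1, Tagln and Pdlim3 were higher in the Hopx-/- cultures with XAV939 than in the Hopx+/- cultures. Cald1, Des and Acta2 were lower, and Cnn2 and Smtn did not pass the test. The Acta2 call is limited by signals at the top of the scanner's range on replicates 2 and 3, and it was lost with median centring. Myh11 was not well above background in either culture. Of the 9 genes that could be tested, 4 were called higher (44.4%) and 3 lower (33.3%), while 31.3% of all 14710 tested genes were called higher, 32.7% lower and 63.9% in either direction. The share of the 9 called lower is close to that of all genes, and the share called higher exceeds it by about 1 gene, so neither count is a result about these genes. Their median log2 ratio was -0.03, against -0.01 over all genes. A call here is a limma adjusted p of at most 0.05 over 24384 probes, with each gene taken from its brightest tested probe. These p-values rest on the spread among the 3 arrays, with each probe's variance drawn by limma towards that of all tested probes. They therefore do not measure a gene's printed SD alone.

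**Figure D1:**
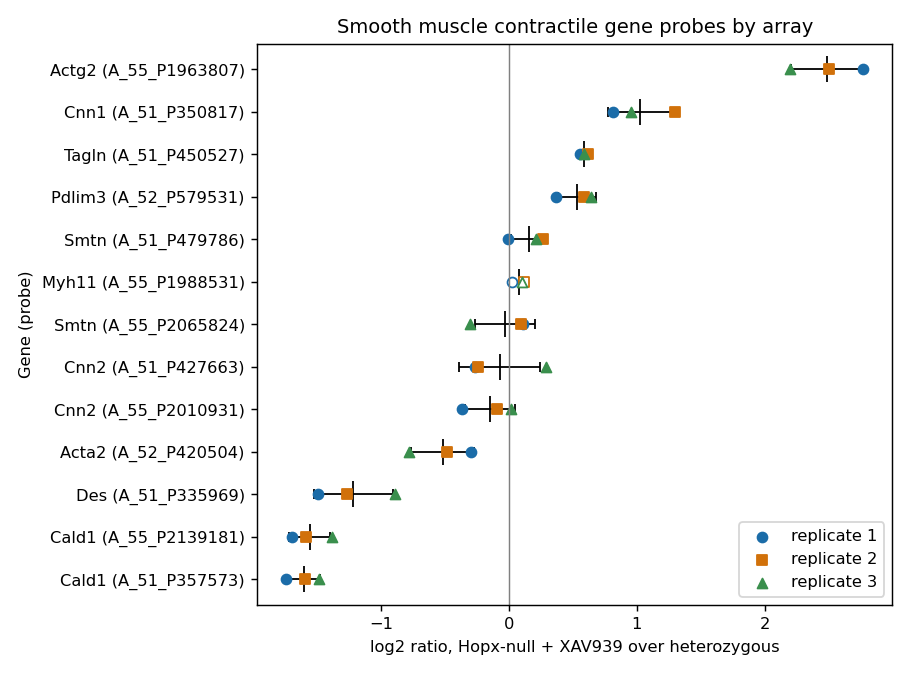
Log2 ratio of Hopx-/- plus XAV939 over Hopx+/- for each of the 13 probes (rows), 1 marker per replicate, open markers where the probe was not tested. The Actg2 points lie at 2.20 to 2.77, far to the right of all others, and the points of both Cald1 probes and of Des lie left of 0.

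Of the 9 tested genes, the greatest difference was in Actg2, the gamma actin of enteric smooth muscle, found in gut and bladder wall. Its log2 ratios were 2.77, 2.50 and 2.20 in replicates 1, 2 and 3. The normalized log2 intensities were 11.69, 11.41 and 10.73 in the Hopx-/- cultures with XAV939, against 8.92, 8.91 and 8.53 in the Hopx+/- cultures, so the groups did not overlap. The mean was 2.49 ± 0.28 (SD, n = 3), or 5.61-fold higher, with a limma adjusted p of 1.22e-06 and a 95% interval of 2.20 to 2.77. The single probe was well above background in both cultures on every array.

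Acta2, the smooth muscle alpha actin used most often to mark vascular smooth muscle and myofibroblasts, moved the other way and by less. Its log2 ratios were -0.29, -0.48 and -0.78, with intensities of 15.54, 15.48 and 15.02 in Hopx-/- cultures with XAV939, against 15.83, 15.96 and 15.80 in Hopx+/- cultures. All 3 ratios were below 0, and the mean of -0.52 ± 0.25 (SD, n = 3), 1.43-fold lower, had an adjusted p of 0.00487 by limma and a 95% interval of -0.79 to -0.25. The call depended on the normalization. With each array only centred on its median, in place of loess, the value was -0.16 with an adjusted p of 0.698, and with replicate 3 left as labelled it was 0.0014, whereas the other alternatives gave -0.63 to -0.39. In addition, Acta2 was so bright that most of its 10 spots reached the scanner's ceiling, taken as a median signal of 65000 in either channel: 7, 1 and 1 of the 10 spots stayed below it on replicates 1, 2 and 3. Once spots at the ceiling and outlier spots were removed, 6, 0 and 0 remained, and replicate 1 alone gave -0.29. A signal at the ceiling is a lower bound for the RNA in that channel. On replicate 2, with the Hopx-/- channel at the ceiling, the Acta2 ratio before normalization is thus a lower bound. On replicate 3, with the Hopx+/- channel at the ceiling, it is an upper bound. The loess curve was itself fitted through spots at the ceiling. The normalized ratios of -0.48 and -0.78 are therefore not bounds, and neither their size nor their sign is settled.

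The difference between the log2 ratios of the 2 smooth muscle actins, Actg2 minus Acta2, was 3.06 on replicate 1. The Acta2 spots at the ceiling on that array are included in this value. The difference is not given for replicates 2 and 3, where no usable Acta2 spot stayed below the ceiling.

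**Figure D2:**
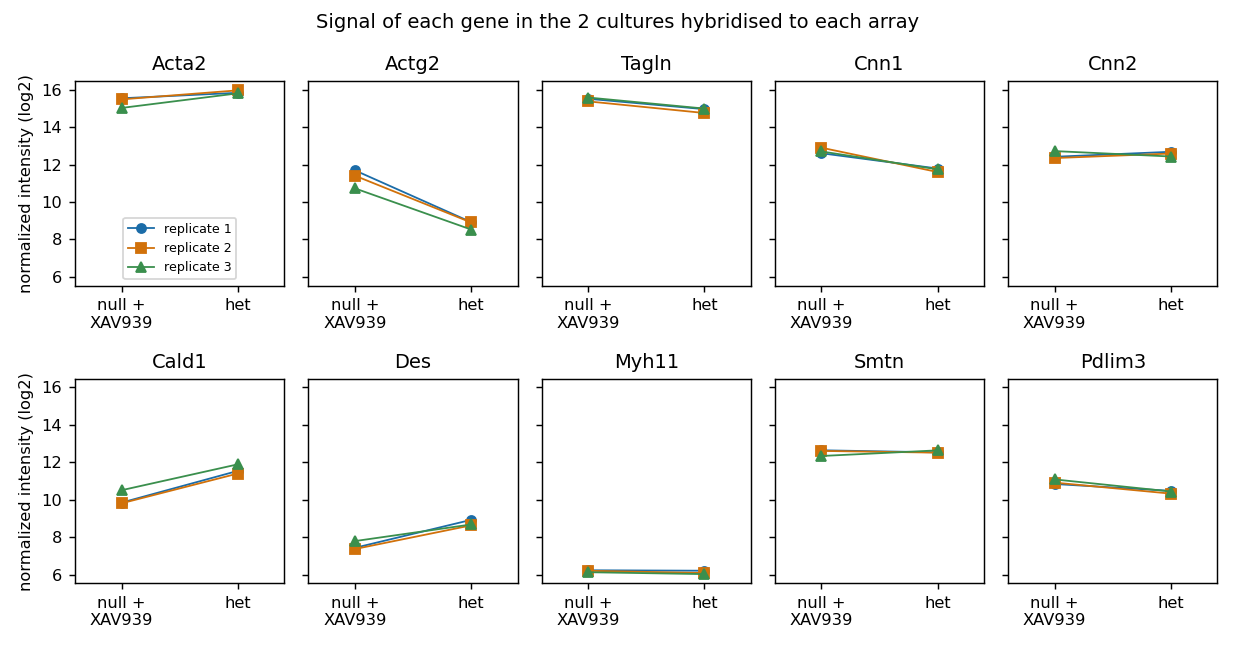
Normalized log2 intensity of the brightest probe of each gene in the Hopx-/- culture with XAV939 (left in each panel) and the Hopx+/- culture (right), with a line joining the 2 channels of an array. The Actg2 lines fall to the right on all 3 arrays and the Cald1 and Des lines rise, and the Myh11 lines lie at the level of background. Levels of different probes cannot be set against each other.

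Among the actin-binding proteins, Tagln encodes transgelin (SM22), which bundles actin filaments and is an early marker of the smooth muscle programme. Its log2 ratios were 0.55, 0.62 and 0.59. Its intensities were 15.51, 15.37 and 15.58 in Hopx-/- cultures with XAV939, against 14.96, 14.75 and 14.99 in Hopx+/- cultures, with no overlap. Tagln was higher by 0.59 ± 0.03 (SD, n = 3), or 1.50-fold, with an adjusted p of 0.000811 by limma. Its spot reached the ceiling in the Hopx-/- channel of replicate 2, and without that array the value was 0.57. With median centring it was 0.94. On replicate 1 the difference, Tagln minus Acta2, was 0.85, with the Acta2 spots at the ceiling included. It is not given for the replicates on which no usable Acta2 spot stayed below the ceiling.

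Cnn1 encodes calponin 1, an inhibitor of actomyosin ATPase that marks differentiated smooth muscle. Its log2 ratios were 0.82, 1.30 and 0.96. Intensities were 12.60, 12.90 and 12.70 in Hopx-/- cultures with XAV939, against 11.79, 11.60 and 11.74 in Hopx+/- cultures, again without overlap. The mean was 1.03 ± 0.25 (SD, n = 3), 2.04-fold higher, with an adjusted p of 0.000108 in limma. The related Cnn2, made in smooth muscle and in many other motile cells, had ratios of -0.27, -0.24 and 0.29 and a mean of -0.07 ± 0.31 (SD, n = 3, adjusted p 0.652 in limma, 95% interval -0.37 to 0.22). Cnn2 lay lower on replicates 1 and 2 and higher on replicate 3, and its second probe gave -0.36, -0.09 and 0.01. Without replicate 3 the brightest Cnn2 probe was called lower, at -0.25 with an adjusted p of 0.0251 in limma. The difference of the ratios of the 2 calponins, Cnn1 minus Cnn2, was 1.08, 1.54 and 0.67.

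Cald1 encodes caldesmon, which binds actin, myosin and tropomyosin and exists as a long form of smooth muscle and a short form of other cells. Which form these probes read is not given. Log2 ratios of the brighter probe were -1.70, -1.59 and -1.38. Its intensities were 9.84, 9.81 and 10.51 in Hopx-/- cultures with XAV939, against 11.54, 11.40 and 11.89 in Hopx+/- cultures, with a gap between the groups. Cald1 was lower by a mean of -1.56 ± 0.16 (SD, n = 3), 2.94-fold, with an adjusted p of 5.60e-06 in limma. A second probe gave -1.74, -1.59 and -1.48, or 3.04-fold lower, so the 2 probes differed by less than their spread.

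Smtn encodes smoothelin, found with actin stress fibres in contractile smooth muscle. Its brighter probe had ratios of 0.11, 0.09 and -0.30 and a mean of -0.03 ± 0.23 (SD, n = 3, adjusted p 0.828 in limma, 95% interval -0.30 to 0.23). The second probe gave -0.01, 0.27 and 0.21, a mean of 0.16 ± 0.14 with an adjusted p of 0.223. Neither probe passed, and replicates 1 and 3 lay on opposite sides of 0 in the 2 probes, replicate 1 near 0 in the second.

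Des encodes desmin, the muscle intermediate filament protein that ties Z-discs and dense bodies together in all muscle types, cardiac muscle included. Its log2 ratios were -1.49, -1.26 and -0.89, each a mean over 10 spots whose SD within an array was 0.057, 0.067 and 0.124. Intensities were 7.43, 7.36 and 7.79 in Hopx-/- cultures with XAV939, against 8.92, 8.63 and 8.68 in Hopx+/- cultures. The groups did not overlap. The mean was -1.22 ± 0.31 (SD, n = 3), 2.32-fold lower, with an adjusted p of 6.51e-05 in limma. Desmin is a dim probe, so its size depends on the background: it was -0.64 with the local backgrounds that the scanner software marked as outliers left in, with the call kept.

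Pdlim3 encodes ALP, a PDZ and LIM domain protein that binds alpha-actinin in striated and smooth muscle. Its log2 ratios were 0.37, 0.59 and 0.65. Intensities were 10.84, 10.91 and 11.08 in Hopx-/- cultures with XAV939, against 10.47, 10.32 and 10.44 in Hopx+/- cultures. It was higher by 0.53 ± 0.15 (SD, n = 3), or 1.45-fold, with an adjusted p of 0.00221 by limma.

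Myh11 encodes the smooth muscle myosin heavy chain, the most specific marker of the mature cell. Its probe was not well above background in either channel of any of the 3 arrays. Its intensities were 6.23, 6.20 and 6.13 in Hopx-/- cultures with XAV939, against 6.21, 6.08 and 6.03 in Hopx+/- cultures, and no fold is given. Lmod1, leiomodin, another marker of mature smooth muscle, was not tested, since on at least 1 array no probe of it was well above background in either channel. Mylk, the myosin light chain kinase that starts contraction, was near background, and its log2 ratio of 0.10 ± 0.07 (SD, n = 3) had an adjusted p of 0.384 in limma. Of these genes, Myh11 was thus at background, Lmod1 failed the same criterion on at least 1 array and Mylk lay near it.

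**Figure D3:**
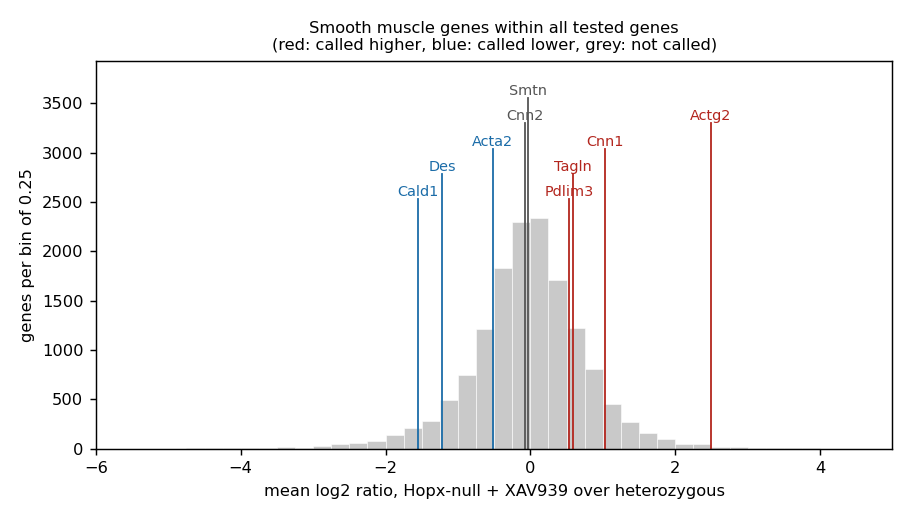
Number of tested genes per bin of mean log2 ratio (grey bars, 14710 genes) with the 9 tested smooth muscle genes marked by line, colour giving the call. Actg2 lies far out in the upper tail. Cald1 and Des lie on the lower side, less far out, where many other genes lie too, and Cnn2 and Smtn lie near the centre.

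Of the 7 genes called, 4 differed by at least 2-fold: Actg2, Cnn1, Cald1 and Des. The deposited median signals, before any correction, ran in the same direction under both dye orientations in 6 of the 7. For Actg2 they were 4020, 4108 and 1245 in Hopx-/- cultures with XAV939, against 325, 418 and 387 in Hopx+/- cultures. For Cald1 they were 1139, 1363 and 1086.5 in Hopx-/- cultures with XAV939, against 2119, 2442 and 4069 in Hopx+/- cultures. Acta2 was the exception. Its signals averaged 60857, 65108 and 28663 in Hopx-/- cultures with XAV939, against 39935, 45633 and 64607 in Hopx+/- cultures, so they were higher in the Cy5 channel on every array, whichever RNA it held.

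**Figure D4:**
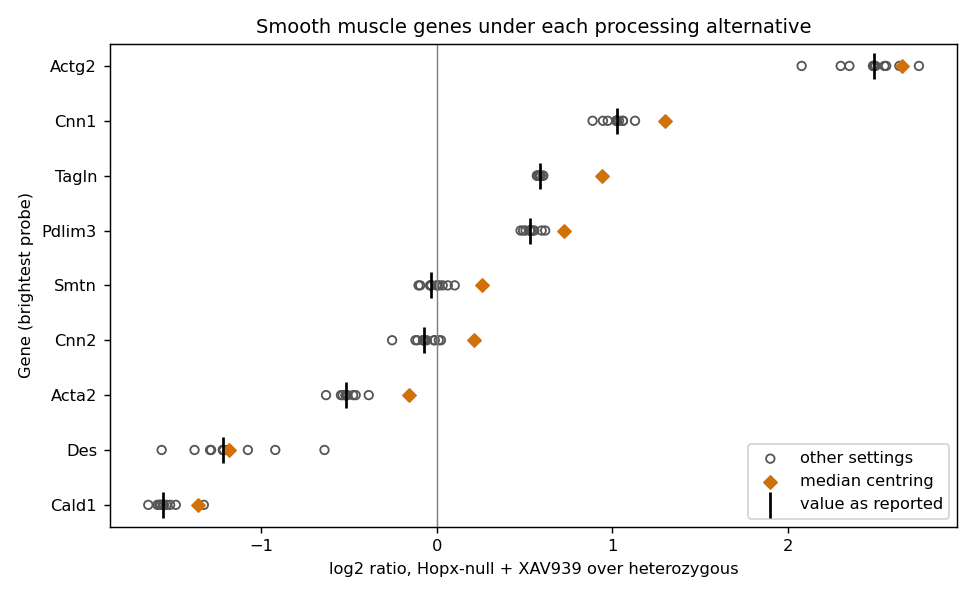
Log2 ratio of each tested smooth muscle gene (brightest probe) under every processing alternative except leaving replicate 3 unturned; black bars are the reported values, orange diamonds the values with median centring and open circles the rest. The Acta2 diamond lies at -0.16, near 0, while Actg2, Cnn1, Tagln, Pdlim3, Cald1 and Des keep their side of 0 throughout.

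The relatives of these proteins in other cells were examined next, to see how the smooth muscle members compare. Of 20 such paralogues 19 were tested, 10 were lower (52.6%) and 3 higher (15.8%), with a median of -0.41. Over all genes 32.7% were lower and 31.3% higher. With median centring 4 paralogues were lower and 3 higher. The calls over all genes then fell too, from 4809 to 2054 lower and from 4598 to 3036 higher. Among the actins, the cardiac alpha actin Actc1 was lower at -0.95 ± 0.38 (SD, n = 3, adjusted p 0.000488 in limma). The skeletal alpha actin Acta1 had -0.13 ± 0.26 and the cytoplasmic Actg1 0.12 ± 0.47, with adjusted p of 0.388 and 0.563. The cytoplasmic Actb had -0.43 ± 0.62 and an adjusted p of 0.0888, with ratios of -0.78, -0.80 and 0.28. Its Cy5 signal was at the ceiling on each array: the Hopx-/- channel on replicates 1 and 2 and the Hopx+/- channel on replicate 3. Without replicate 3, Actb was called lower at -0.79 (adjusted p 5.49e-06 in limma) and Actg1 higher at 0.39 (adjusted p 0.0026). That Actb call rests on arrays with the Hopx-/- channel at the ceiling, so its sign is not settled. With median centring Actc1 lost its call, at -0.59. By brightest probe, Actg2 passed the test upward among the actins named here, and Acta2 and Actc1 passed it downward, with the limits given above. Of 5 tested Actg1 probes, however, 2 were called higher and 0 lower, with ratios of 0.07 to 0.57. The mean over the Actg1 probes was also called higher, at 0.315 (adjusted p 0.0268 in limma). Differences between the members of this family were not tested.

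Tagln2, the transgelin of non-muscle cells, was higher at 0.96 ± 0.10 by its brightest probe (SD, n = 3, adjusted p 5.91e-05 in limma), but its other probe was called lower at -1.01. It was the sole gene with opposite calls among the 46 list genes with several tested probes. The neuronal Tagln3 was higher at 0.67 ± 0.07, at low signal. The third calponin, Cnn3, had -0.16 ± 0.23 and an adjusted p of 0.261. The non-muscle myosin heavy chains Myh10 and Myh9 were lower, Myh10 at -0.52 ± 0.09 and Myh9 at -0.38 ± 0.29, and Myh9 lost the call without replicate 3. The greatest falls among the Pdlim3 relatives were in Pdlim4 at -2.31 ± 0.28, in the striated muscle Z-disc gene Ldb3 at -1.75 ± 0.24 and in Pdlim2 at -1.49 ± 0.29. Of the other intermediate filament genes, Nes, nestin of neural and muscle progenitors, was higher at 2.60 ± 0.33 (6.06-fold, adjusted p 1.35e-06 in limma), and Vim was lower at -0.41 ± 0.07. With median centring Myh10, Myh9 and Vim lost their calls, at -0.31, -0.05 and -0.11. With the marked local backgrounds kept, Tagln3, Myh10 and Myh9 lost theirs, at 0.31, -0.41 and -0.36. Myh9 lost its call with the scanner software's log ratio as well, at -0.36.

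Among 40 further genes of the contractile machinery and its attachment to the membrane, 38 were tested. Of these 24 were lower (63.2%) and 5 higher (13.2%), with a median of -0.42, beside 32.7% of all genes lower and 31.3% higher. Their mean log2 intensity per array was 10.61 to 10.81 in Hopx-/- cultures with XAV939, against 11.13 to 11.19 in Hopx+/- cultures. The greatest falls were in Nexn, a Z-disc and adhesion protein, at -1.52 ± 0.57, in the tropomyosin Tpm1 at -1.48 ± 0.16, in the desmin chaperone Cryab at -1.46 ± 0.09, and in Lpp, a focal adhesion LIM protein, at -1.42 ± 0.51. All 5 tested probes of Tpm1 were lower, between -1.61 and -0.38. The regulatory light chain Myl9, a partner of the heavy chain Myh11, was lower at -0.90 ± 0.15 (SD, n = 3, adjusted p 0.000114 in limma). The greatest rises were in vinculin, Vcl, at 0.84 ± 0.34, in Filip1l at 0.73 ± 0.45, in the actin crosslinker Flna at 0.48 ± 0.33 and in Tns1, tensin 1, at 0.46 ± 0.41. The Tns1 ratio of replicate 3 was -0.01, and Tns1 and Flna lost their calls without replicate 1, at 0.31 and 0.33, and without replicate 2, at 0.38 and 0.44. Flna also lost it without the spots at the ceiling (0.44, adjusted p 0.0548 in limma). The second probes of Vcl and Tns1 were not called, at -0.08 and -0.14, and the mean over probes was 0.38 for Vcl and 0.16 for Tns1, which ended the Tns1 call. With median centring Myl9 lost its call at -0.58. These counts depended on the normalization, as did those over all genes. With median centring 10 of these further genes were lower and 2 higher, and with the marked backgrounds kept 11 and 2.

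**Figure D5:**
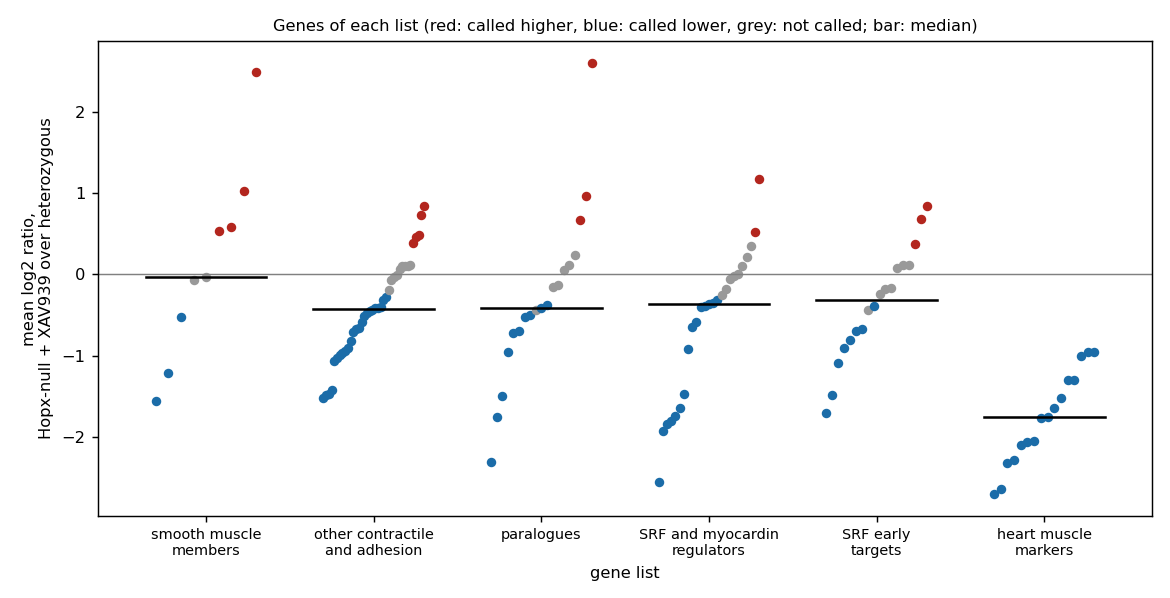
Mean log2 ratio of every tested gene in each of 6 lists (points, red called higher, blue called lower, grey not called) with the median as a bar. All 16 heart muscle marker points lie below 0, and the smooth muscle genes spread on both sides of it.

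The SRF axis was next. Of 26 genes that act with SRF or on smooth muscle transcription 25 were tested, 15 were lower (60.0%) and 2 higher (8.00%), with a median of -0.36. Over all genes 32.7% were lower and 31.3% higher. With median centring 7 of the 25 were lower and 1 higher, while the calls over all genes fell as well. Myocd, myocardin, the coactivator that drives smooth and cardiac muscle genes, had log2 ratios of -2.11, -1.81 and -1.58. Its intensities were 8.20, 8.36 and 8.47 in Hopx-/- cultures with XAV939, against 10.30, 10.17 and 10.05 in Hopx+/- cultures. Myocd was 3.56-fold lower (-1.83 ± 0.26, SD, n = 3, adjusted p 4.80e-06 in limma). SRF itself passed no test at its brightest probe (0.22 ± 0.20, adjusted p 0.123), while its other probe was called higher at 0.32. The actin-sensing coactivators differed in sign, but only Mrtfb was called at its brightest probe. Mrtfa had 0.35 ± 0.40 with a limma adjusted p of 0.0659 and a second probe called higher at 0.49. Mrtfb was lower at -0.39 ± 0.10, while its second probe, at -0.21, was not called. Mrtfb lost its call with median centring (-0.14), the scanner software's log ratio (-0.29), marked backgrounds kept (-0.31) and the authors' processed values (-0.35). Without replicate 2 it lost the call too, at -0.39. Srf was called higher without replicate 3, at 0.34.

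Klf4, which in smooth muscle represses contractile genes and in stem cells maintains pluripotency, was 5.86-fold lower at -2.55 ± 0.10 (SD, n = 3, adjusted p 4.52e-07 in limma). The cardiac and endodermal factors Gata6 and Gata4 were lower at -1.93 ± 0.32 and -1.80 ± 0.22. Elk3, an ETS factor that competes with myocardin for SRF, was higher at 1.18 ± 0.11 by its brightest probe, 1 of 3 tested probes to be called, and its mean over probes was 0.55. The mesenchymal homeobox gene Prrx1 was higher at 0.52 ± 0.16, near background. Thus Actg2, Cnn1 and Tagln were higher in cultures with less Myocd RNA, and Cald1 and Des were lower in them. Acta2 was called lower too, but no usable Acta2 spot stayed below the ceiling on replicates 2 and 3. Whether these differences are linked was not tested.

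Among 20 genes that SRF induces within hours of stimulation, 18 were tested, 8 were lower (44.4%) and 3 higher (16.7%), with a median of -0.32. The shares over all genes were 32.7% lower and 31.3% higher. The matricellular gene Ccn1 was lower at -1.70 ± 0.10 and Fos at -1.09 ± 0.19, besides Tpm1 and Myl9, which this list shares with the contractile one. Ier2 and Egr2 were higher at 0.68 ± 0.19 and 0.38 ± 0.02, besides Vcl. With the marked backgrounds kept, Fos and Ier2 lost their calls, at -0.72 and 0.47. Egr2 lost its call without replicate 1 (0.37) or replicate 2 (0.38), with the authors' processed values (0.24), with the marked backgrounds kept (0.16) and with median centring (0.36). With median centring 3 of the 18 were lower and 2 higher, while the calls over all genes fell as well.

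Markers of other cell types were counted in the same way, beside 32.7% of all genes lower and 31.3% higher. All 16 cardiac muscle markers were lower (median -1.76), with a mean log2 intensity per array of 10.46 to 10.70 in Hopx-/- cultures with XAV939, against 12.21 to 12.41 in Hopx+/- cultures. All 12 visceral endoderm markers were lower too (median -3.57), at 8.86 to 9.39 in Hopx-/- with XAV939 and 12.45 to 12.52 in Hopx+/-. Of 14 tested fibroblast markers 8 were lower (57.1%) and 2 higher (14.3%), at 9.74 to 10.10 in Hopx-/- with XAV939 and 10.70 to 11.00 in Hopx+/-. Of 9 tested epicardial markers 5 were lower (55.6%) and 1 higher (11.1%), at 7.78 to 7.91 in Hopx-/- with XAV939 and 8.41 to 8.59 in Hopx+/-. Of 10 endothelial markers 1 was lower (10.0%) and 6 higher (60.0%), at 9.02 to 9.27 in Hopx-/- with XAV939 and 8.63 to 8.66 in Hopx+/-. Of 9 tested pericyte markers 2 were lower (22.2%) and 1 higher (11.1%), both below the shares of all genes, at 8.90 to 9.17 in Hopx-/- with XAV939 and 9.17 to 9.21 in Hopx+/-. Of 8 tested skeletal markers 3 were lower (37.5%) and 2 higher (25.0%), at 7.95 to 8.23 in Hopx-/- with XAV939 and 8.18 to 8.33 in Hopx+/-, and the defining factors Myod1, Myog, Myf5 and Myf6 were not tested, by the same criterion. Some genes stand in more than 1 list, such as Tcf21 in the fibroblast and epicardial ones. The part of these cell types in the values of Cald1, Des, Acta2, Actg2, Cnn1, Tagln and Pdlim3 was not tested.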

How the data were processed

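RNA of Hopx-/- embryoid bodies with 12.5 µM XAV939 and of Hopx+/- embryoid bodies was compared on 3 two-colour arrays, 1 on 1 slide and 2 on another. The authors deposited median spot and background intensity for each channel, Feature Extraction processed intensity, and a log10 ratio of Cy5 over Cy3 (version 11.5.1.1 per the file headers, 8.5.1.1 per the submitters' processing notes). They also deposited processed log2 ratios with column medians of 0.086, -0.08 and 0.053, whose centring and normalization are unknown here. Per the file headers, other columns are marks scored 0 or 1.

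Normexp (offset 50) and loess within arrays were applied to the median signals in limma 3.58.1 (R 4.3.3), with control spots at weight 0. Outlier spots were dropped, and local backgrounds marked as outliers were replaced by the channel's median. Intensities for each channel were made comparable between arrays by Aquantile. Probes well above background in at least 1 channel of each array were tested against 0 (24384 probes, median SD 0.166), with Benjamini-Hochberg adjustment, and the script was tested on simulated data. Precision is limited by having 3 arrays. RefSeq accessions named 28025 probes. Replicate 3 was turned against its label. The genes and lists were chosen with earlier results of these data known. Named were all members and 17 fixed relatives and regulators, Hopx and, in each pathway list, the 4 greatest falls and rises; cell type markers are given as counts. The 3 genes nearest Acta2 were planned but are not given, since its spots were at the ceiling. Some list results are not reported here.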

Additional observations from a re-analysis of the deposited data

How the results depend on the processing

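With replicate 3 left as labelled, limma called 0 of the smooth muscle genes lower and 0 higher (96 probes and 0 of theirs had an unadjusted p under 0.05). Actg2 then had a log2 ratio of 1.02, Cnn1 0.39, Tagln 0.19, Pdlim3 0.10, Des -0.62, the Cald1 probes -0.63 and -0.62, Acta2 0.0014 and the brighter Smtn probe 0.17, and the ratios of Cnn3 0.12, Mrtfa -0.19, Myh9 0.0912 and Mylk -0.0114 changed sign. With median centring Acta2 lost its call (-0.16), 2 smooth muscle genes were lower, the Cnn2 probes had 0.21 and 0.10, Acta1 0.0693 and Cnn3 0.16, and all genes split into 2054 lower and 3036 higher (59.6% of calls higher, against 48.9%, with the median shifted by 0.11). The brighter Smtn probe, never called, changed sign with the Feature Extraction ratio (0.0335), median centring (0.26), marked backgrounds kept (0.014), the mean over probes (0.0624) and the slide as a block (0.0035). The mean over probes of Tagln2 was -0.022. Marked backgrounds kept left 1992 genes lower and 2438 higher, with 8 SRF regulators lower and 1 higher, 5 fibroblast markers lower and 1 higher, 0 endothelial markers lower and 2 higher, 1 epicardial marker lower, 1 early target higher, and 0 pericyte markers called. It also ended the calls of 10 of 38 other named genes, and median centring those of 11, Filip1l, Flna, Prrx1 and Egr2 among them.

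Without replicate 2, Mrtfb and Vim (both -0.39), Egr2, Flna and Tns1 (0.38, 0.44 and 0.38) lost their calls and 3 of the further contractile genes were higher (also without replicate 1); without replicate 3, Myh9 did (-0.21). The 1 endothelial marker called lower lost its call without replicate 2 or 3. Mrtfa was called higher without replicate 1 (0.49). Leaving out 1 array at a time gave 3 to 4 smooth muscle genes lower and 4 higher. Ratios ranged over 2.35 to 2.63 for Actg2, 0.89 to 1.13 for Cnn1, 0.57 to 0.61 for Tagln, 0.48 to 0.62 for Pdlim3, -1.64 to -1.49 and -1.67 to -1.54 for Cald1, -1.38 to -1.08 for Des, -0.63 to -0.39 for Acta2, -0.25 to 0.0234 for Cnn2, -0.10 to 0.10 for Smtn, -0.25 to 0.0084 for Acta1 and -0.0581 to 0.39 for Actg1. Over all alternatives except the unturned replicate 3, Actg2, Cnn1, Tagln, Pdlim3, Cald1 and Des kept their call. Removing spots at the ceiling, chosen after seeing the data, left Acta2 untestable. The mean pixel signal was not run, since no such column was used here. The ratio within each array already pairs its cultures, so the reported test is itself the paired one. The slide, shared by replicates 2 and 3, was fitted as a block as a further alternative. Saturation limits Acta2, Tagln, Actb, Actg1, Actc1 and Flna, and Flna lost its call without spots at the ceiling (0.44), and low signal limits Des, Mylk and Myh11.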
